A study of Mus musculus with 28 samples.

Results

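Tight junction genes were examined for H3K27ac, the acetylation of histone H3 that marks active promoters and enhancers, in NMuMG mouse mammary epithelial cells during TGF-β-induced EMT with and without inhibition of ERK signalling. The 9 genes were Cldn1, Cldn3, Cldn4, Cldn7, Ocln, Tjp1, Tjp3, Cgn and F11r. A peak was given to a gene when its summit lay within 100 kb of a protein-coding start site of that gene and no other protein-coding start site was nearer. This gave 897 of the 893719 peaks in the 15 lists, of which 60 were promoter peaks (summit no more than 1000 bp before or 100 bp after a start site) and 837 were distal. Overlapping peaks of different libraries were merged into regions, and 78 of 89050 regions belonged to the 9 genes, 4 at promoters and 74 distal. Of these 78, 25 were called in all 15 libraries, 34 in 3 to 14, 7 in 2 and 12 in a single library.

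Each condition had 3 libraries. The 0h cells were untreated. The 4h and 24h cells received 2 ng/ml TGF-β with DMSO, and the ERKi 4h and ERKi 24h cells received the same TGF-β after a 30 min pretreatment with 25 µM UO126, an inhibitor of the MEK kinases that activate ERK. All cells came from 1 subclone of the line, NMuMG/E9, so the values describe that subclone, and UO126 was the only inhibitor used in these libraries. No library at 4h or 24h had DMSO without TGF-β. In comparisons with 0h, TGF-β, DMSO and time in culture therefore cannot be told apart. ERKi 24h against 0h differs by UO126 as well, and no library had UO126 without TGF-β. No label says that the replicates were separate cultures, so p-values measure the spread between these libraries, which may be technical.

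Tight junctions seal the space between neighbouring epithelial cells near their apical side. Claudins, occludin and JAM-A (F11r) span the membrane, and the cytoplasmic proteins ZO-1 (Tjp1), ZO-3 (Tjp3) and cingulin (Cgn) tie them to actin. Cells that undergo EMT take these junctions apart, and Snail and Zeb factors, which bind E-box letters, are known repressors of claudin and occludin genes.

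The lists held between 50445 and 69180 peaks per library, of which 46 to 76 belonged to the 9 genes. The height used below is the number of fragments over a peak's summit (summit pileup) divided by a library factor that ranged from 0.777 to 1.37, and is called the scaled pileup. Against the epithelial label, the promoter of Krt8 held a summit in 15 of 15 libraries. Cdh1 and Krt18 held one within 2500 bp of a start site in all 15 but none inside the promoter window, Grhl2 held one within 2500 bp in 3 libraries, and Epcam and Esrp1 held none. None of the 8 haematopoietic, endothelial or adipocyte markers had a summit within 2500 bp in any library.

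Some of the regions described below are shown by sequence, read from mm9. The 250 bases before the start sites of Cldn4, Tjp3 and F11r are given 5′ to 3′ on the gene's strand, because these were the 3 genes of the 9 with an E-box there. Capitals mark E-box (CAGGTG) and AP-1 (TGANTCA) letters on either strand, and positions count back from the base before the start site as -1.
Cldn4 upstream, chr5:135422805-135423054, minus strand: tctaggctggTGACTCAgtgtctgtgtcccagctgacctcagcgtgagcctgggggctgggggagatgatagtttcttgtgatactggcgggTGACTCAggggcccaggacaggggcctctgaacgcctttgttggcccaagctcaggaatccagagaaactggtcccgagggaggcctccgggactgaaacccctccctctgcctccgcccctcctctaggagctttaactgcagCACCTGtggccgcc
Tjp3 upstream, chr10:80754013-80754262, minus strand: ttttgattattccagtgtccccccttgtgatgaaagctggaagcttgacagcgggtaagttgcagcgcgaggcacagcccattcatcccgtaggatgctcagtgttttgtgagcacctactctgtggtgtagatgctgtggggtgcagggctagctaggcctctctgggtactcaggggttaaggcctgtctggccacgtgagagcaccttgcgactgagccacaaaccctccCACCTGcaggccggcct
F11r upstream, chr1:173367416-173367665, plus strand: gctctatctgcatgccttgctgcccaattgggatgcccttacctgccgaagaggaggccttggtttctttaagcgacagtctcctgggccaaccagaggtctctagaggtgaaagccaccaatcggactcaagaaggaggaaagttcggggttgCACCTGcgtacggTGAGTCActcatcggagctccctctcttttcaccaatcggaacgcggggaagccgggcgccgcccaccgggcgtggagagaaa
The E-box began at -14 in Cldn4, -17 in Tjp3 and -96 in F11r. AP-1 letters began at -240 and -158 in Cldn4 and at -83 in F11r. An E-box was present before the start site in 3 of 9 genes, beside 16.9% of the 22232 protein-coding genes, and AP-1 letters in 2 of 9, beside 5.87%. For each gene only the bases before its most upstream protein-coding start site were read. Cldn3, Cldn7, Ocln, Tjp1 and Cgn had further start sites. The GRHL letters AACCGGTT (0.126% of genes) and the FOXA letters TGTTTAC (2.71%) were found before none of the 9.

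Around the summits, 200 bases of the plus strand are given for the Cldn4 promoter region and for distal regions described in the next paragraphs. These distal regions differed in height in the limma test without the replicate block. A region is named by its gene and the distance of its summit from the start site, with minus for upstream. Cldn3 -4.5 kb, Cldn7 -3.0 kb and Cgn +3.1 kb also differed in that test but are not printed. Their 200 bases held no E-box, AP-1, GRHL or FOXA letters.
Cldn4 promoter region, chr5:135423361-135423560: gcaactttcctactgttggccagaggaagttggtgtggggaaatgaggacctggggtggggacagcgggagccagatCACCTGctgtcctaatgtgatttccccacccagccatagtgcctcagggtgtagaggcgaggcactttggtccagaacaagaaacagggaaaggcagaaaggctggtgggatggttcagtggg
Cldn4 -4.5 kb, chr5:135427232-135427431: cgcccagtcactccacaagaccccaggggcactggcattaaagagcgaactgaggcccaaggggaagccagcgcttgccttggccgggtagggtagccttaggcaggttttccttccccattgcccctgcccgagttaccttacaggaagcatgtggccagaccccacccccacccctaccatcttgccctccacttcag
Cldn4 -12.0 kb, chr5:135434747-135434946: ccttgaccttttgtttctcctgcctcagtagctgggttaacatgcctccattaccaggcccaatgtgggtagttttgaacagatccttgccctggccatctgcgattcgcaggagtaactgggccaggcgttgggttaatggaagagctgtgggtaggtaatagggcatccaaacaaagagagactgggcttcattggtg
Cldn3 +3.7 kb, chr5:135465964-135466163: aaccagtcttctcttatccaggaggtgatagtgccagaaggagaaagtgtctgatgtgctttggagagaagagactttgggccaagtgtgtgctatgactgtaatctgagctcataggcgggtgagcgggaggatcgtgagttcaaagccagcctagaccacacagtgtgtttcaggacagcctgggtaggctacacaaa
Tjp1 -16.1 kb, chr7:72532128-72532327: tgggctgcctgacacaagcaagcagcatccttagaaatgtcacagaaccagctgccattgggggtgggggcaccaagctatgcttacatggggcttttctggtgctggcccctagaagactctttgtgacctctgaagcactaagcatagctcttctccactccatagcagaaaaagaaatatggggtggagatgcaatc
Tjp1 -59.3 kb, chr7:72575315-72575514: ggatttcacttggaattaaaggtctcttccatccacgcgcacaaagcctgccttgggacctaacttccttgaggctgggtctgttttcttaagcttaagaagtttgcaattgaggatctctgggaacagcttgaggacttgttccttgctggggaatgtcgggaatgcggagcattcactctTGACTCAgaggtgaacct
Tjp3 +5.1 kb, chr10:80748769-80748968: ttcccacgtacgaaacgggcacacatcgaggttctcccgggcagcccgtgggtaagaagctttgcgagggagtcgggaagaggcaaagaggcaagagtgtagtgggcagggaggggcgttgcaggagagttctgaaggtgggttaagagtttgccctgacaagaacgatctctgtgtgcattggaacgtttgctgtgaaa
An E-box began 23 bases before the summit of the Cldn4 promoter region, and AP-1 letters 82 bases after that of Tjp1 -59.3 kb. An E-box also began 2 bases after the summit of the Ocln promoter region, which is not printed. Of the 23 distal regions of the 9 genes called in all 15 libraries, 1 held an E-box within these 200 bases and 2 held AP-1 letters, while over all 18236 such distal regions the shares were 15% and 5.19%. None of the 23 held the GRHL letters (0.0603% of all) or the FOXA letters (2.56% of all).

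Cells were measured in bulk, so a change in all cells and a change in a share of them cannot be told apart. Heights were compared with limma over the 26934 regions called in all 15 libraries, with a region called at a Benjamini-Hochberg adjusted p below 0.05. Because libraries with the same replicate number deviated together, each of these counts is followed by the count with the replicate number as a block. At 4h against 0h, 1 of the 25 tight junction regions rose (4%) and none fell, while over all regions 3.4% rose and 0.234% fell. With the block, 6 rose and 1 fell, beside 11.1% and 4.35% of all regions. Without it, 4 were higher and 1 lower at an unadjusted p below 0.05, beside 2718 and 969 of all 26934 regions. At 24h, 4 rose (16%) and 1 fell (4%) against 0h, beside 10.8% and 6.57% of all regions. With the block, 8 rose and 5 fell, beside 18.4% and 16.3%. On fold enrichment, the height relative to the fragments expected locally, 2 regions were called at 24h and both were lower, so none of the 4 gains was called on that scale. The median difference of the 25 regions at 24h was +0.06 on the log2 scale, and that of all regions -0.03.

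At ERKi 4h against 4h, limma called none of the 25 regions, while over all regions 0.00371% rose and 0.208% fell. With the block, none rose and 2 fell, beside 0.95% and 2.64%. Without it, none was higher and 2 were lower at an unadjusted p below 0.05, beside 548 and 1027 of all 26934 regions. ERKi at 24h raised 1 region and lowered 1 against 24h (4% each), beside 3.1% and 4.4% of all regions. With the block, 7 rose (28%) and 4 fell (16%), beside 12.3% and 13.4%. The median difference of the 25 regions was +0.16 in this comparison, and that of all regions -0.0042. Against 0h, ERKi 24h cells had 5 regions higher (20%) and 1 lower, beside 11.2% and 8.55% of all regions, and 9 higher and 3 lower with the block, beside 20.6% and 20.1%. The comparisons with 0h share the same 3 untreated libraries. No region of any gene passed the test of the ERKi effect at 24h against that at 4h (0% of 26934 by limma without the block). At an unadjusted p below 0.05, 3 of the 25 were higher and 3 lower, beside 647 and 947 of all 26934. With the block, 2 of the 25 passed (8%), both lower, beside 1.9% lower (511) and 1.44% higher (389) of all regions.

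**Figure D1:**
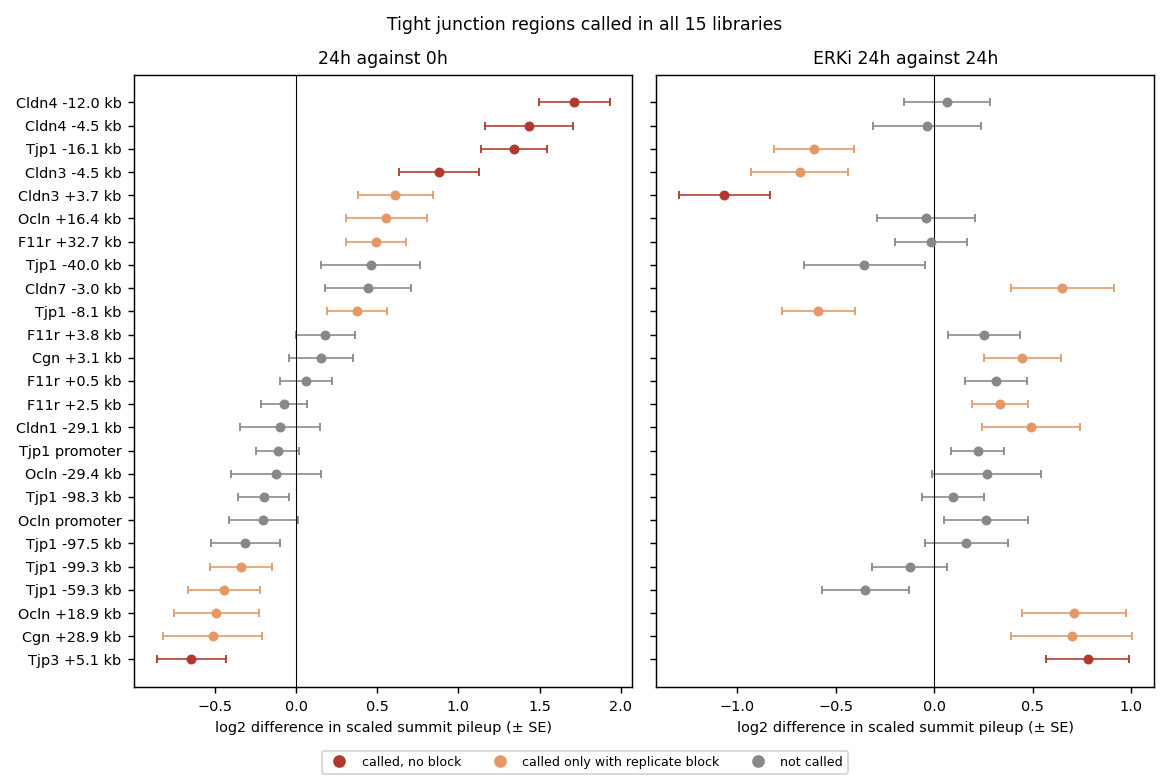
Log2 difference in scaled summit pileup (x axis, point ± SE from limma, 3 libraries a condition) for the 25 tight junction regions called in all 15 libraries (y axis), at 24h against 0h (left) and ERKi 24h against 24h (right). Red points passed the test without the block, orange points only with it, and grey points in neither fit. The Cldn4 regions lie farthest right on the left panel (+1.71 and +1.43) and near 0 on the right panel (+0.06 and -0.04).

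Cldn4 (ENSMUSG00000047501, chr5:135420996-135422804, minus strand) encodes a claudin of the seal between epithelial cells and had the regions with the highest gains. The region Cldn4 -12.0 kb (chr5:135434508-135435971) lies between genes. Its scaled pileups were 52.4, 40.1 and 61.4 (0h), 112, 89.4 and 128 (4h), 189, 130 and 186 (24h), 129, 122 and 143 (ERKi 4h), and 179, 136 and 213 (ERKi 24h). Every library treated with TGF-β was above every 0h library, with or without ERKi. The region rose by +1.10 ± 0.22 (log2, SE, n = 3 against 3; limma adjusted p = 0.00961) at 4h and by +1.71 ± 0.22 (adjusted p = 8.22e-05) at 24h, which is 3.28-fold. ERKi 24h differed from 24h by +0.06 ± 0.22 and ERKi 4h from 4h by +0.27 ± 0.22, and neither passed the test. The 4h call was lost without 0h replicate 2 (+0.94) or without 4h replicate 3 (+0.98).

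The region Cldn4 -4.5 kb (chr5:135426549-135427915), also between genes, was likewise highest at 24h and ERKi 24h and lowest at 0h. Its scaled pileups were 39.3, 55.5 and 48.2 (0h), 78.7, 63.2 and 77.1 (4h), 128, 102 and 160 (24h), 68.0, 51.9 and 103 (ERKi 4h), and 115, 94.0 and 179 (ERKi 24h). The 24h and ERKi 24h libraries lay above all 0h libraries, whereas 1 ERKi 4h library overlapped with 0h. The rise at 24h was +1.43 ± 0.27 (adjusted p = 0.00168), and ERKi 24h against 0h was +1.40 ± 0.27 (adjusted p = 0.00197). ERKi 24h against 24h was -0.04 ± 0.27. At 4h the difference of +0.62 was called only with the block (adjusted p = 0.0361).

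The Cldn4 promoter region (chr5:135423079-135424367) had no peak in the 3 untreated libraries. It was called in 3 libraries at 4h, 3 at 24h, 2 at ERKi 4h and 3 at ERKi 24h. Scaled pileups were 46.4, 34.6 and 48.7 at 4h, and reached 160, 92.4 and 183 by 24h. At ERKi 24h they were 125, 106 and 177, inside the range of the 24h libraries. A peak that was not called has no height in the lists, so no fold against 0h is given.

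The fragment number expected around the summit (the local lambda of MACS2) moved with these heights. At Cldn4 -4.5 kb the scaled lambda was 5.42 ± 0.92 (SD, n = 3) at 0h, 13.2 ± 2.4 at 4h, 37.5 ± 12 at 24h, 14.8 ± 4.2 at ERKi 4h and 33.0 ± 9.1 at ERKi 24h. At Cldn4 -12.0 kb it went from 9.27 ± 1.2 at 0h to 44.7 ± 12 at 24h and 41.1 ± 11 at ERKi 24h. The lambda difference at 24h was +2.75 and +2.24 on the log2 scale, while the median over all 26934 regions was -3.6e-05. Fold enrichment divides the summit by lambda, and on that scale the direction turned at both regions, to -1.11 at Cldn4 -4.5 kb and -0.42 at Cldn4 -12.0 kb for 24h against 0h. At 4h against 0h Cldn4 -12.0 kb was +0.15 on that scale and was not called. The fold enrichment of Cldn4 -4.5 kb ranged from 6.62 to 8.61 at 0h and from 3.15 to 4.03 at 24h.

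**Figure D2:**
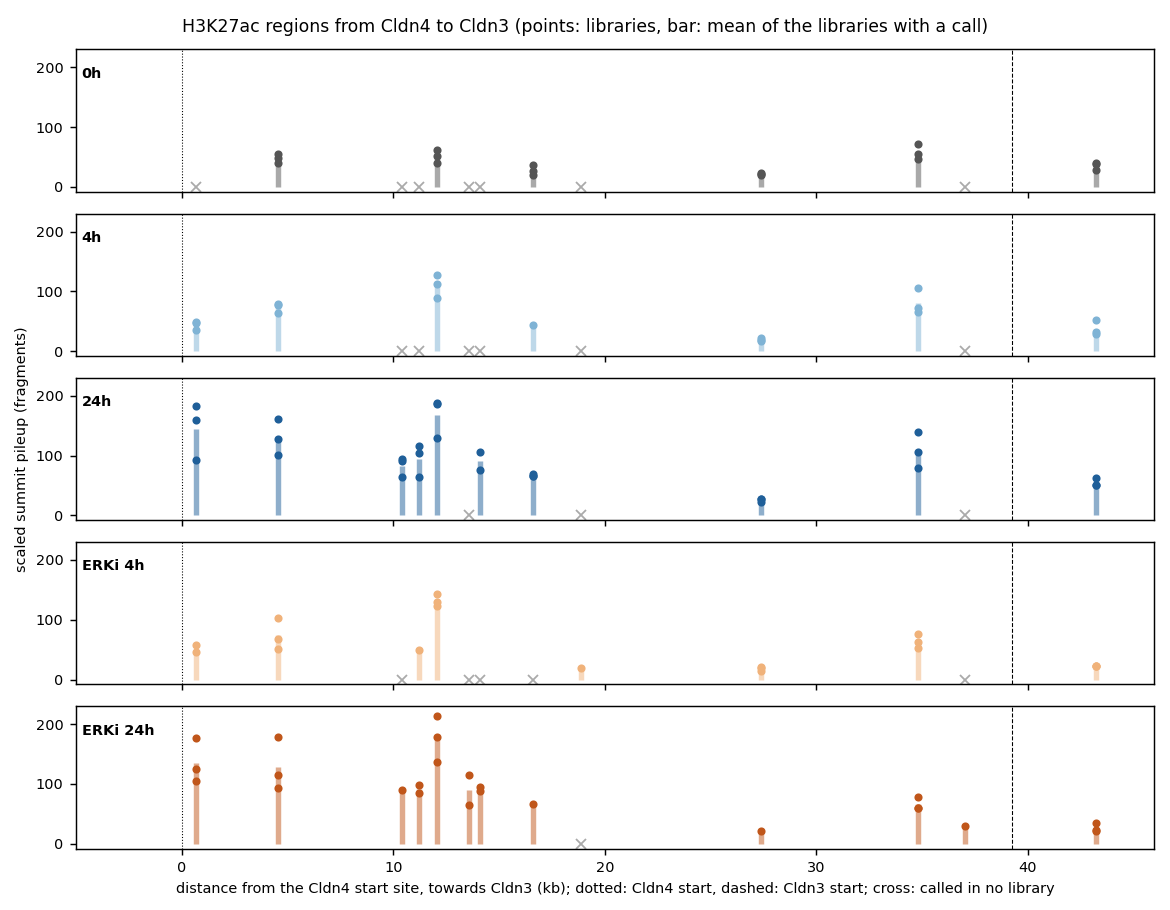
Scaled summit pileup (y axis, fragments) of each region from Cldn4 to Cldn3 against its distance from the Cldn4 start site in kb (x axis), with 1 panel a condition, points for libraries, bars for the mean of the libraries with a call and crosses for regions called in none of the 3. At 24h and ERKi 24h the Cldn4 promoter and -12.0 kb regions reached 183 and 213, and at 0h no point exceeded 72.3.

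Cldn3 (ENSMUSG00000070473, chr5:135462084-135463342, plus strand) lies next to Cldn4 and encodes another claudin of epithelial cells. It had no promoter peak in any library, and its 2 regions called in all libraries both lay between genes. At Cldn3 -4.5 kb (chr5:135456308-135458492), scaled pileups were 47.3, 54.3 and 72.3 (0h), 72.6, 65.6 and 106 (4h), 106, 78.7 and 139 (24h), 62.1, 53.1 and 76.1 (ERKi 4h), and 60.2, 59.2 and 78.3 (ERKi 24h). The 24h libraries were all above the 0h libraries and above the ERKi 24h libraries, though by a narrow margin (78.7 against 78.3). The region rose by +0.88 ± 0.25 at 24h (adjusted p = 0.0200), a call lost without 0h replicate 1 or 2 (+0.74 and +0.84) or 24h replicate 1 or 3 (+0.87 and +0.68). Lambda rose alongside, from 8.51 ± 1.2 at 0h to 15.7 ± 4.6 at 24h (+0.85 on the log2 scale), and on fold enrichment the difference was +0.10 and was not called. ERKi 24h was lower than 24h by -0.68 ± 0.25, called only with the block (adjusted p = 0.111 without and 0.000807 with it), as was the rise at 4h (+0.48, blocked adjusted p = 0.0147).

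At Cldn3 +3.7 kb (chr5:135464865-135466664), scaled pileups were 28.4, 40.1 and 38.4 (0h), 28.9, 32.2 and 52.3 (4h), 50.4, 50.2 and 61.7 (24h), 22.3, 23.5 and 22.3 (ERKi 4h), and 22.8, 21.9 and 34.1 (ERKi 24h). All ERKi libraries but 1 were below all 0h libraries. ERKi 24h was lower than 24h by -1.07 ± 0.23 (adjusted p = 0.0110), 2.09-fold. The rise at 24h against 0h (+0.61 ± 0.23) and the lower ERKi 4h against 4h (-0.69 ± 0.23) were called only with the block (adjusted p = 0.00730 and 0.0285, and 0.0857 and 0.481 without it), as was ERKi 24h against 0h (-0.45, blocked adjusted p = 0.0340). Lambda moved with the height here too, from 6.96 ± 1.8 at 24h to 3.63 ± 0.53 at ERKi 24h, and on fold enrichment the difference between them was -0.30 and was not called.

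Cldn7 (ENSMUSG00000018569, chr11:69778281-69781387, plus strand) encodes a claudin also found along the lateral membrane. It had no promoter peak, 1 region called in all libraries and 1 other. Cldn7 -3.0 kb (chr11:69774603-69775780) lies between genes and was low, with scaled pileups of 13.1, 15.4 and 17.5 (0h), 19.2, 25.0 and 13.8 (4h), 16.5, 30.8 and 17.5 (24h), 23.3, 16.1 and 16.2 (ERKi 4h), and 29.4, 38.6 and 30.2 (ERKi 24h). ERKi 24h was above 0h without overlap, by +1.09 ± 0.26 (adjusted p = 0.00782). Against 24h the difference was +0.65 ± 0.26, called only with the block (adjusted p = 0.166 without and 0.0384 with it), and 24h replicate 2 lay within the ERKi 24h range. Lambda was 2.85 ± 0.62 at 0h and 2.88 ± 1.0 at ERKi 24h, and the difference between these conditions was also called on fold enrichment (+1.05). The other region, Cldn7 +3.5 kb in an intron of the neighbouring gene Rai12, was called in all libraries of 0h, 4h and ERKi 4h, in none of 24h and in 1 of ERKi 24h. Its called libraries had 16 to 28 fragments, and the lowest 5% of summits in each list ended at 13 to 16.

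Cldn1 (ENSMUSG00000022512, chr16:26356728-26371927, minus strand) encodes a claudin required for barrier function. It had no promoter peak, and its 1 region called throughout, Cldn1 -29.1 kb (chr16:26400285-26402218), had scaled pileups of 93.9, 76.8 and 96.4 (0h), 89.5, 66.2 and 95.6 (24h) and 125, 81.1 and 155 (ERKi 24h). The 0h and 24h libraries overlapped (-0.10 ± 0.25). ERKi 24h against 24h was +0.49 ± 0.25, called only with the block (adjusted p = 0.292 without and 0.0276 with it).

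**Figure D3:**
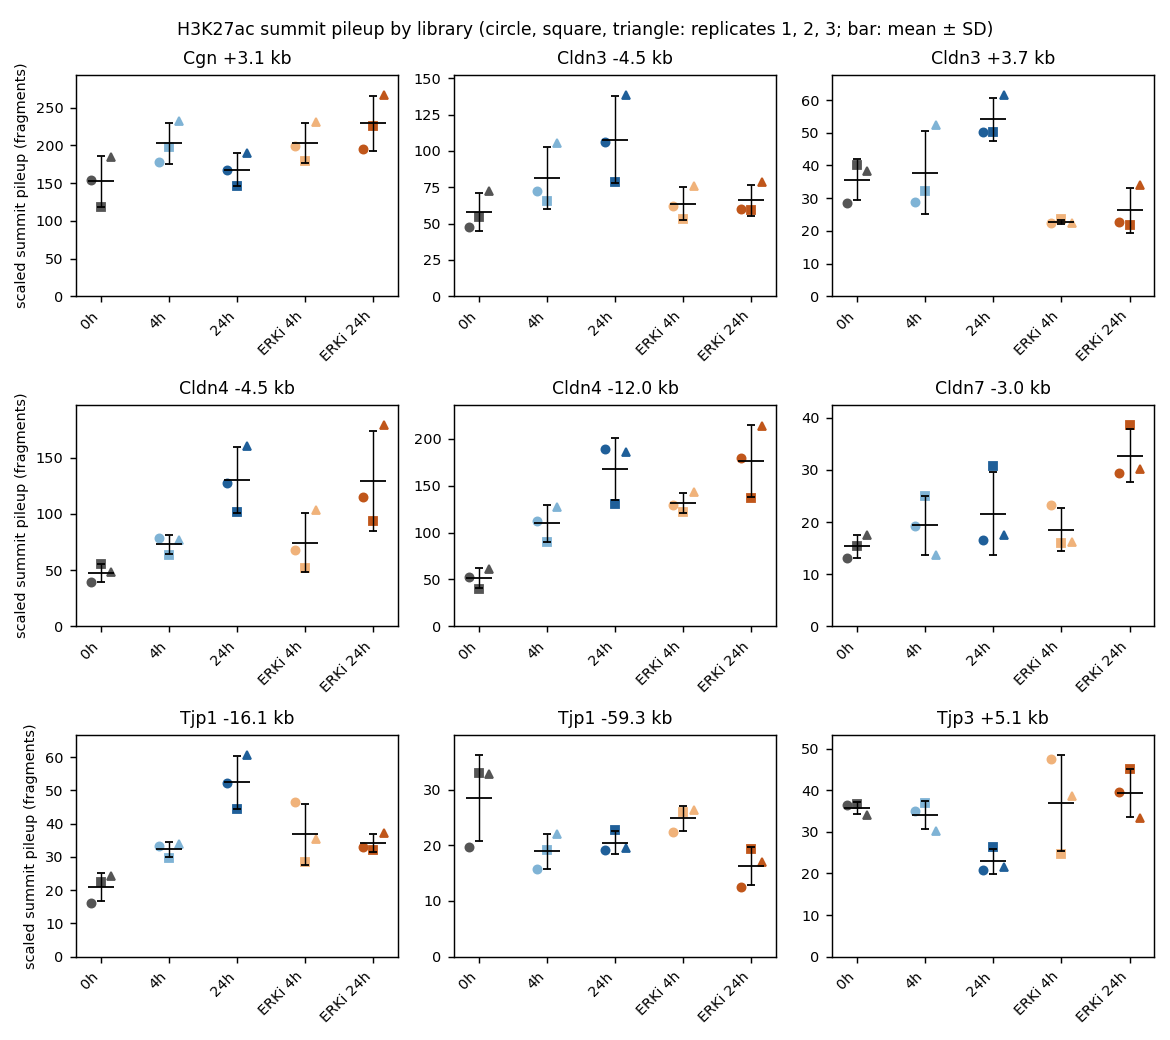
Scaled summit pileup (y axis, fragments) by condition (x axis) for the 9 regions called without the block in at least 1 comparison, with circles, squares and triangles for replicates 1, 2 and 3 and bars for mean ± SD. At Cldn4 -12.0 kb the mean went from 51.3 at 0h to 168 at 24h and 176 at ERKi 24h, and at Tjp3 +5.1 kb from 35.7 to 22.9 and 39.3.

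Ocln (ENSMUSG00000021638, chr13:101266462-101322673, minus strand) encodes occludin, a membrane protein of the strands. Its promoter region (chr13:101321490-101323105) was called in all 15 libraries, with scaled pileups of 56.8, 53.1 and 37.3 (0h), 38.2, 53.6 and 36.0 (24h) and 49.9, 63.1 and 40.3 (ERKi 24h). The conditions overlapped, with differences of -0.20 ± 0.21 at 24h against 0h and +0.26 ± 0.21 at ERKi 24h against 24h, neither called in either fit. In its introns, 2 neighbouring regions went in different directions, both called only with the block. Ocln +16.4 kb was 63.6 ± 15 at 0h, 93.1 ± 21 at 24h and 90.5 ± 20 at ERKi 24h (24h against 0h +0.55, blocked adjusted p = 0.00154, with 4h at +0.40 and ERKi 24h at +0.51 against 0h also called with the block). Ocln +18.9 kb was 73.0 ± 8.3 at 0h, 52.5 ± 11 at 24h and 86.0 ± 20 at ERKi 24h (24h against 0h -0.49, blocked adjusted p = 0.0437, and ERKi 24h against 24h +0.71, blocked adjusted p = 0.00844). Without the block their adjusted p was 0.156, 0.254 and 0.128.

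F11r (ENSMUSG00000038235, chr1:173367666-173394734, plus strand) encodes JAM-A, an immunoglobulin-like adhesion molecule. It had no summit inside its promoter window, and the nearest region, F11r +0.5 kb in its intron (chr1:173367730-173369314), had scaled pileups of 132, 122 and 112 (0h), 129, 141 and 112 (24h) and 148, 183 and 145 (ERKi 24h). None of the 4 tested F11r regions passed the test without the block in any comparison. With the block, ERKi 24h exceeded 0h at F11r +0.5 kb (+0.38, adjusted p = 0.0165) and F11r +3.8 kb (+0.43, adjusted p = 0.00856), and ERKi 24h exceeded 24h at F11r +2.5 kb (+0.33, adjusted p = 0.0447). A further region, F11r +32.7 kb, held 26 peaks nearest to F11r and 15 nearest to Refbp2, so it is shared by both genes. It was higher at 24h than at 0h only with the block (+0.49, adjusted p = 0.0206, and 0.0806 without), and likewise at ERKi 24h (+0.47, adjusted p = 0.0226).

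Tjp1 (ENSMUSG00000030516, chr7:72441051-72516125, minus strand) encodes ZO-1, the scaffold that binds claudins and occludin, and had 29 of the 78 regions. Its promoter region (chr7:72514913-72516710) was among the highest and steadiest, with scaled pileups of 163, 185 and 188 (0h), 156, 170 and 171 (24h) and 192, 198 and 187 (ERKi 24h). The difference was -0.11 ± 0.13 at 24h against 0h and +0.22 ± 0.13 at ERKi 24h against 24h, and neither passed the test in either fit. Far upstream, Tjp1 -97.5 kb, -98.3 kb and -99.3 kb were also high, with condition means from 99.1 to 200.5. Only with the block were calls made there, for Tjp1 -99.3 kb at 24h and ERKi 24h against 0h (-0.34 and -0.47, adjusted p = 0.0424 and 0.00657) and for Tjp1 -98.3 kb at ERKi 4h against 4h (-0.54, adjusted p = 0.0331).

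Tjp1 -16.1 kb (chr7:72531479-72532662), between genes, was the scaffold region with the highest gain. Its scaled pileups were 16.0, 22.4 and 24.1 (0h), 33.2, 29.8 and 34.0 (4h), 52.1, 44.5 and 60.6 (24h), 46.6, 28.4 and 35.5 (ERKi 4h), and 33.0, 32.2 and 37.2 (ERKi 24h). All treated libraries were above all 0h libraries, and the ERKi 24h libraries were below all 24h libraries. The rise was +1.34 ± 0.20 at 24h (adjusted p = 0.000308) and +0.73 ± 0.20 at ERKi 24h against 0h (adjusted p = 0.0187), the second lost without 0h replicate 1 (+0.55) or ERKi 24h replicate 3 (+0.67). Lambda went from 3.39 ± 0.54 at 0h to 8.14 ± 0.98 at 24h (+1.27 on the log2 scale) and 5.97 ± 0.50 at ERKi 24h. On fold enrichment the differences from 0h were +0.25 at 24h and -0.0089 at ERKi 24h, and neither was called. ERKi 24h was lower than 24h by -0.61 ± 0.20, called only with the block (adjusted p = 0.0140, and 0.0860 without), as was the rise at 4h (+0.65, adjusted p = 0.0145). Beside it, Tjp1 -8.1 kb was 25.3 ± 3.8 at 0h, 32.6 ± 3.6 at 24h and 21.6 ± 0.60 at ERKi 24h, with ERKi 24h lower than 24h only with the block (-0.59, adjusted p = 0.00420, and 0.0654 without), as was 24h above 0h (+0.37, adjusted p = 0.0398).

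Tjp1 -59.3 kb (chr7:72575070-72576404) fell in ERKi 24h against 0h. Its scaled pileups were 19.7, 33.1 and 32.9 (0h), 19.1, 22.8 and 19.5 (24h) and 12.5, 19.3 and 17.1 (ERKi 24h). ERKi 24h was below 0h by -0.79 ± 0.22 (adjusted p = 0.0189), a call lost without 0h replicate 2 (-0.67), 0h replicate 3 (-0.67) or ERKi 24h replicate 1 (-0.61). On fold enrichment it was -0.40 and was not called. The difference at 24h, -0.44 ± 0.22, and that at 4h, -0.56 ± 0.22, were called only with the block (adjusted p = 0.0189 and 0.00999).

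Tjp3 (ENSMUSG00000034917, chr10:80735952-80754012, minus strand) encodes ZO-3, the ZO protein most restricted to epithelia, and had no promoter peak. Tjp3 +5.1 kb (chr10:80748674-80749982) lies in a Tjp3 intron. Its scaled pileups were 36.4, 36.6 and 34.0 (0h), 35.0, 37.0 and 30.3 (4h), 20.8, 26.2 and 21.6 (24h), 47.6, 24.7 and 38.5 (ERKi 4h), and 39.6, 45.1 and 33.3 (ERKi 24h). The 24h libraries were below every library of 0h, 4h and ERKi 24h, and the ERKi 24h libraries surrounded the 0h values. The region fell by 0.65 ± 0.21 on the log2 scale at 24h (adjusted p = 0.0466, and 0.0139 with the block). It was higher in ERKi 24h than in 24h by +0.78 ± 0.21 (adjusted p = 0.0350, and 0.00661 with the block). The call at 24h stood near the threshold and was lost when any of 11 single libraries was left out (all but 24h replicate 2, ERKi 4h replicates 1 and 2 and ERKi 24h replicate 3), with differences from -0.58 to -0.68. The call of ERKi 24h against 24h was lost without 24h replicate 1 or 3 or ERKi 24h replicate 1 or 2 (+0.67 to +0.77). On fold enrichment neither was called (+0.02 at 24h against 0h and +0.27 at ERKi 24h against 24h), and lambda went from 5.77 ± 0.29 at 0h to 3.46 ± 0.97 at 24h.

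Cgn (ENSMUSG00000068876, chr3:94464507-94590414, minus strand) encodes cingulin, a coiled-coil protein that links ZO-1 to actomyosin. Its promoter region (chr3:94590512-94591058) was called in 13 libraries, with scaled pileups of 127, 119 and 86.6 (0h), 109, 100 and 74.4 (4h), 76.4, 82.2 and 73.0 (24h), and 77.1 in the 1 ERKi 24h library with a call. The 24h libraries lay below all 0h libraries, a difference that the test did not cover since 2 libraries had no call there. In the gene, Cgn +3.1 kb (chr3:94586315-94588741, intron) was higher at ERKi 24h than at 0h by +0.60 ± 0.20 (adjusted p = 0.0423), with scaled pileups of 195, 225 and 267 against 154, 118 and 185. That call was lost without any of 7 single libraries (+0.43 to +0.62), namely 0h replicate 1 or 2, 4h replicate 2, 24h replicate 1, ERKi 4h replicate 1 and ERKi 24h replicate 2 or 3. On fold enrichment it was +0.20 and was not called. With the block, 4h against 0h (+0.43, adjusted p = 0.0277) and ERKi 24h against 24h (+0.45, adjusted p = 0.0143) were called as well. Cgn +28.9 kb was 52.2 ± 20 at 0h, 34.9 ± 7.0 at 24h and 58.0 ± 18 at ERKi 24h, a fall of 0.51 and a rise of +0.70 called only with the block (adjusted p = 0.0162 and 0.00355).

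Whether a region was called at all was compared next, over the 59 tight junction regions called in at least 3 libraries. Against 0h, 8 regions (13.6%) were called in all 3 libraries at 24h and in none at 0h, beside 7.23% of the 60506 regions of the series called in at least 3 libraries, and 2 (3.39%) went the other way, beside 3.05%. The 8 were the Cldn4 promoter, Cldn4 -10.4 kb, Cldn4 -11.2 kb, F11r +7.4 kb, F11r +15.4 kb, Tjp1 +55.9 kb, Tjp1 -17.1 kb and Cgn +5.1 kb, and the 2 were Cldn1 -14.4 kb and Cldn7 +3.5 kb. At 4h the Cldn4 promoter alone was gained (1.69%, beside 1.7%) and none was lost (0.583% of all). ERKi at 4h gained and lost none (0.326% and 0.463% of all). ERKi at 24h gained Cldn1 -14.4 kb against 24h (1.69%, beside 2.19%) and lost none (1.78% of all). Against 0h, 6 regions were gained at ERKi 24h (beside 6.45% of all) and none was lost (2.65% of all), namely the Cldn4 promoter, F11r +15.4 kb, Tjp1 +55.9 kb, Tjp1 -17.1 kb, Tjp1 -84.0 kb and Cgn +22.3 kb.

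Heights in the gained regions differed between genes. Cldn4 -11.2 kb had scaled pileups of 104, 63.9 and 116 at 24h, F11r +7.4 kb had 66.9, 47.9 and 69.9, and Cgn +5.1 kb had 59.9, 67.3 and 90.4. These 3 lay next to higher regions, with a fold enrichment between 1.84 and 2.79 over a local lambda of 24.0 to 42.2 on average, and the height of a library without a call there is not in the lists. The Tjp1 regions were lower, 39.1, 28.5 and 41.1 at Tjp1 -17.1 kb and 33.0, 22.8 and 30.8 at Tjp1 +55.9 kb, with ERKi 24h at 28.6, 21.9 and 31.8, and 41.9, 34.8 and 41.1. At Cldn1 -14.4 kb, missing at 24h only, the called libraries had 13 to 26 fragments, and the lowest 5% of summits in each list ended at 13 to 16.

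**Figure D4:**
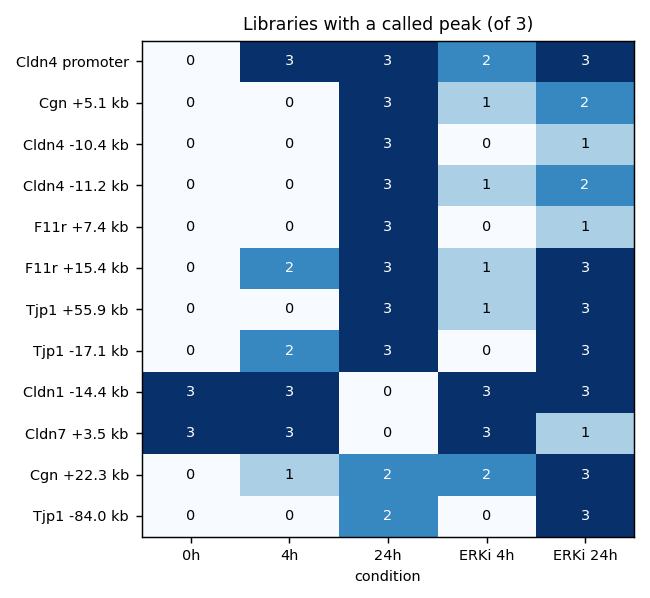
Number of libraries, of 3, with a called peak (colour and digit) in each condition (x axis) for the 12 tight junction regions that were called in all 3 libraries of one condition and none of another in the 5 comparisons (y axis). The Cldn4 promoter reads 0, 3, 3, 2 and 3, and Cldn1 -14.4 kb reads 3, 3, 0, 3 and 3.

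Distal peak numbers per gene were compared by exact permutation, where 3 against 3 libraries cannot give a p under 0.1. At 24h against 0h, 3 of 9 genes had more distal peaks without overlap, beside 12.1% of the 14315 genes with a distal peak, and none had fewer, beside 4.12%. The count was 1 of 9 among peaks with -log10 q of at least 10 and 0 of 9 when each list was held to its 20000 top peaks, and the full lists held 52221 to 59658 peaks at 0h and 56759 to 68050 at 24h. Cldn4 had 3, 3 and 3 distal peaks at 0h and 8, 7 and 8 at 24h. F11r had 5, 5 and 4 at 0h and 7, 8 and 10 at 24h. Cldn3 had 4, 4 and 3 at 0h and 7, 5 and 5 at 24h. Each of these gave the exact p of 0.1, two-sided. Between ERKi 24h and 24h no gene was free of overlap in either direction, beside 4.04% and 3% of genes. Tjp1 had more peaks under ERKi in each replicate number (23, 21 and 28 against 14, 19 and 21). The share of all genes with more in each replicate number is not given. The full lists held 64660, 56042 and 69180 peaks at ERKi 24h and 56759, 61890 and 68050 at 24h.

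**Figure D5:**
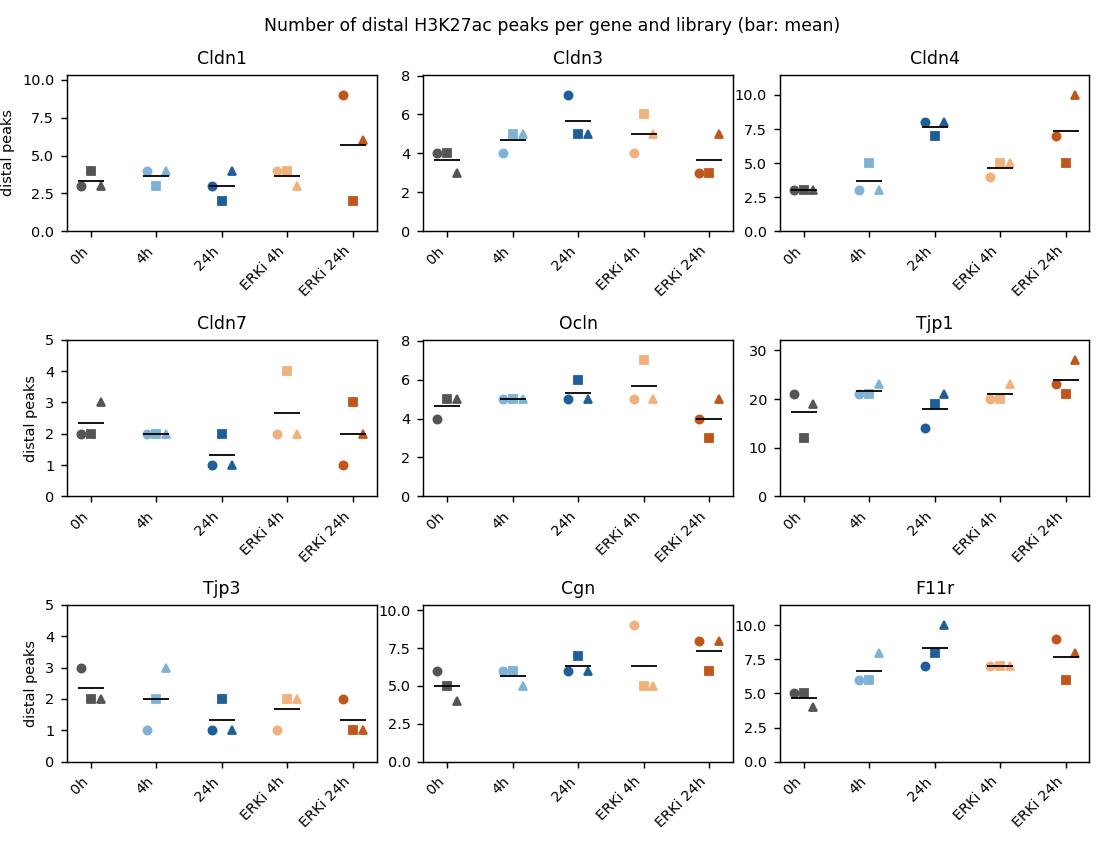
Number of distal H3K27ac peaks (y axis) per library for each gene, by condition (x axis), with symbols for the 3 replicates and a bar for the mean. Cldn4 went from 3 in every 0h library to 7 or 8 at 24h and 5 to 10 at ERKi 24h.

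Other tight junction genes were read from a list of 22, of which 18 had among them 59 regions called in all 15 libraries. At 24h against 0h, 6 of the 59 rose and 2 fell, beside 10.8% and 6.57% of all regions, and with the block 9 rose and 9 fell, beside 18.4% and 16.3%. At ERKi 24h against 24h, 2 rose and 6 fell, beside 3.1% and 4.4%, and with the block 8 rose and 7 fell, beside 12.3% and 13.4%. At 4h 3 rose and none fell (8 and 1 with the block, beside 3.4% and 0.234%, and 11.1% and 4.35%). ERKi at 4h raised none and lowered 1 (none and 3 with the block, beside 0.00371% and 0.208%, and 0.95% and 2.64%). ERKi 24h against 0h raised 6 and lowered 4 (8 and 11 with the block, beside 11.2% and 8.55%, and 20.6% and 20.1%). The region with the lowest p at 24h was 39.1 kb upstream of Cldn23 (chr8:36927920-36930058), a claudin, at 20.9 ± 7.6 at 0h, 117 ± 42 at 24h and 97.8 ± 23 at ERKi 24h (+2.50 ± 0.33, adjusted p = 9.48e-05). Next was a region 42.3 kb downstream of the start of Magi1, a scaffold with PDZ domains, at 63.2 ± 2.6 and 135 ± 28 (+1.07 ± 0.18, adjusted p = 0.000726). The third, 9.9 kb into Amotl1, an angiomotin family gene, went from 27.2 ± 11 at 0h to 57.5 ± 12.5 at 24h and 16.8 ± 2.7 at ERKi 24h. It rose by +1.14 ± 0.26 at 24h (adjusted p = 0.00528) and was lower under ERKi by -1.77 ± 0.26 (adjusted p = 0.000866). Among the lowest p values for ERKi 24h against 24h, a region 2.1 kb upstream of Cldn2, a pore-forming claudin, fell by 1.32 ± 0.26 on the log2 scale (adjusted p = 0.00637), and a region 55.8 kb upstream of Cldn23 fell by 1.20 ± 0.25 (adjusted p = 0.00839).

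Only the promoters of Ocln and Tjp1 could be set beside other promoters, as these were the 2 called in all 15 libraries. Among 8078 promoter regions of other genes, those whose centred log2 pileup was most like the mean of the 2, over the 15 libraries, belonged to Rasd1 (Pearson r = 0.870), Aktip (r = 0.861) and Ripk4 (r = 0.857). The 15 values share condition, replicate number and depth, and r is a description.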

How the data were processed

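H3K27ac ChIP-seq was measured in 15 libraries of NMuMG cells, 3 per condition, grouped by the labels. The authors mapped the reads with bowtie (build mm9) and ran MACS2 on every library alone at default settings (per the submitters' notes and the methods). Whether input was used at that step is not given in the sources used here and was not tested. The labels of the 3 input samples name no condition, whereas lambda at Cldn4 -4.5 kb differed between conditions (5.42 at 0h and 37.5 at 24h). The deposited lists give fold enrichment (a ratio of summit to local lambda), -log10 p and -log10 q, and a score of about 10 times -log10 q that was not used. The 10 RNA-seq and 3 input samples were not analysed here.

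Summit pileup and lambda were solved from fold enrichment and -log10 p. Whole fragment numbers gave both to within 0.005 for all but 25 of 893719 peaks, none of them at a tight junction gene. Peaks that overlapped were merged, pileups were divided by a median-of-ratios factor, and log2 values of the 26934 regions called everywhere were fitted with limma 3.58.1 in R 4.3.3 (group means, Benjamini-Hochberg over all regions). Pileups count fragments without molecular identifiers, and depth is known only through them. Start sites came from protein-coding transcripts of the GENCODE annotation, and coordinates are mm9, counted from 1. Deviations from condition means over these regions correlated between all 30 pairs of same-numbered libraries (0.336 to 0.790, beside -0.675 to 0.363 in 60 other pairs), so the replicate numbers of the labels were taken as pairs. Named were every gene's promoter region, its tested region with the lowest p at 24h against 0h and at ERKi 24h against 24h, and regions called in all libraries of one condition and none of another. Other regions called in either fit were named after their values were seen. Python 3.11.15 was used for the rest. The fit without the block was tested on simulated data, with 200 of 26934 regions changed at 24h by 1 on the log2 scale. It recovered 52% of them, with 11 false calls, so changes of this size could go uncalled in that setting. In the data more regions were called at 24h against 0h (2897 higher and 1769 lower). The Benjamini-Hochberg adjustment is less strict there, so 52% does not measure the recovery in the data. The simulation held no deviations shared by replicate number. The members, gene lists, motifs and tests were chosen with earlier results of these data known. Alternatives are listed at the end.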

Additional observations from a re-analysis of the deposited data

Results flagged for a closer look

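The ERKi effect at 24h minus the ERKi effect at 4h is given for 3 regions in which all 3 replicate numbers moved one way at 4h and the opposite way at 24h. The regions were picked by these directions, so the agreement of the replicate numbers was fixed by the choice. The share of all regions that would meet this rule is not given. Tjp1 -8.1 kb had -0.83 on the log2 scale (adjusted p = 0.504 by limma, and 0.0266 with the replicate block), with ERKi above DMSO at 4h and below at 24h. Tjp1 -59.3 kb had -0.75 (adjusted p = 0.775, and 0.0450 with the block), in the same directions. F11r +2.5 kb had +0.47 (adjusted p = 0.788), below at 4h and above at 24h, and was not called with the block either. Without the block none of the 3 passed the test.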

How the results depend on the processing

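Counts below are of 25 regions, except that 59 were tested among regions called in at least 3 libraries and 14 with -log10 q of at least 10. For those 59, a library without a call was given the height below which the lowest 5% of its summits lay (13 to 16 fragments). The true height there is not known and may be higher, so these counts depend on the fill. Their share over all regions is not given. The number of regions called at 4h against 0h (1) was 2 by quantile normalization, 0 on fold enrichment, 2 among regions called in at least 3 libraries, 7 with the replicate block, 8 with the block and quantile normalization, and 0 to 1 without single libraries (0 without 0h replicate 2 or 4h replicate 3). At 24h against 0h (5, 4 of them higher) it was 2 on fold enrichment, both lower, 3 with -log10 q of at least 10, 14 among regions called in at least 3 libraries, 13 with the block, 12 with the block and quantile normalization, and 3 to 5 without single libraries (3 without 0h replicate 2 or 24h replicate 1 or 3). For ERKi 4h against 4h (0) it was 2 with the block, also with quantile normalization, and 0 without single libraries. For ERKi 24h against 24h (2) it was 0 on fold enrichment, 0 with -log10 q of at least 10, 1 with a trended robust prior, 11 with the block, also with quantile normalization, and 1 to 3 without single libraries (1 without 24h replicate 1 or 3 or ERKi 24h replicate 1 or 2). For ERKi 24h against 0h (6, 5 of them higher) it was 2 on fold enrichment, 1 higher and 1 lower, 2 with -log10 q of at least 10, 17 among regions called in at least 3 libraries, 12 with the block, also with quantile normalization, and 4 to 6 without single libraries. For the difference between the ERKi effects (0) it was 2 with the block and 1 with the block and quantile normalization. Genes with distal peak numbers free of overlap at 24h against 0h (3) were 1 with -log10 q of at least 10, 0 among the 20000 top peaks, and 3 to 5 without single libraries (5 without 24h replicate 2). For ERKi 24h against 24h (0) they were 2 among the 20000 top peaks, 1 with promoters within 2500 bp, 1 with the block, and 0 to 3 without single libraries (3 without ERKi 24h replicate 2, 2 without ERKi 24h replicate 3, 1 without 24h replicate 3).

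On fold enrichment the direction turned for 6 named values, to -1.11 and -0.42 for Cldn4 -4.5 kb and Cldn4 -12.0 kb and 0.016 for Tjp3 +5.1 kb at 24h against 0h, and to -1.05, -0.30 and -0.0089 for Cldn4 -4.5 kb, Cldn4 -12.0 kb and Tjp1 -16.1 kb at ERKi 24h against 0h. Of the other 8 named values only Cldn7 -3.0 kb at ERKi 24h against 0h was called on fold enrichment. Fold enrichment divides by lambda, which rose with the pileup at Cldn4, Cldn3 -4.5 kb and Tjp1 -16.1 kb, and its part in the gains was not tested. Of 119 values of the 14 named calls under other settings, 97 kept direction and call, 16 kept direction only and 6 turned. Of 210 without single libraries, 177 kept both and 33 direction only. The block changed no call other than those given. The lists give no read totals, and heights below the calling threshold are not known.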
